A study of Homo sapiens with 4 samples.

Results

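The transcripts described here encode 6 receptor tyrosine kinases (EGFR, ERBB2, ERBB3, AXL, MET and EPHA2) and 3 ligands of EGFR (AREG, HBEGF and TGFA). The 9 genes were chosen by name, as the rows of the authors' deposited table whose RefSeq accession belongs to them, and had 14 records among the 39745 of that table. A symbol could be given to 19468 genes of the authors' deposited table, and records of 1 gene were averaged to give its value. The table compares MDA-LM2 cells, a human breast cancer line selected for lung metastasis from MDA-MB-231, after transfection with a small interfering RNA (siRNA) against TARBP2 or with a control siRNA. TARBP2 encodes a protein that binds double-stranded RNA and partners Dicer. Total RNA was taken 48 hours after transfection and measured on Illumina expression BeadChips. The knockdown group held 2 arrays, titled siTARBP2-1 and siTARBP2-2, and the control group held 2, titled siControl-1 and siControl-2. The titles alone do not say whether the knockdown numbers mark 2 different siRNAs or 2 replicates. The control titles name siControl, whereas the design text calls the comparison cells mock-transfected. All 4 arrays came from the same line, and nothing in the labels says whether the arrays of a group came from separate cultures.

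Receptor tyrosine kinases are membrane proteins that bind a ligand outside the cell, pair up and phosphorylate each other, which recruits adaptors and starts the RAS-ERK and PI3-kinase cascades. EGFR ligands are made as membrane-bound precursors and are released by ADAM proteases. In breast cancer lines of the triple-negative, mesenchymal type, to which MDA-MB-231 belongs, EGFR, AXL, MET and EPHA2 are the receptors usually studied, while ERBB2 and ERBB3 are better known from luminal and HER2-positive tumours.

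Of the 9 genes in the authors' deposited table, 1 had a value over 0.2, where the class the authors call up-regulated begins, and 2 had a value under the mirrored bound of -0.2. EPHA2 stood higher in the knockdown, AXL and TGFA stood lower, and the other 6 genes lay between the bounds. The same bounds were passed by 13.1% (over 0.2) and 12.1% (under -0.2) of all named genes in the authors' deposited table, together 25.2%. A count of 3 in 9 is near that background. With a bound of 0.1, 2 of the 9 genes lay above (22.3% of all named genes) and 2 below (20.2%), and with a bound of 0.5, 1 lay above (3.17%) and 1 below (3.18%), all from the authors' deposited table. The median of the 9 genes was -0.01 in the authors' deposited table, against 0.00 over all named genes. Each value is the log fold change that the authors' deposited table gives for knockdown over control, with base 2 assumed because none is stated. These values could not be traced to the arrays. Of the 600 most extreme records of the authors' deposited table, 164 lay within 0.0001 of some probe's log2 difference between knockdown mean and control mean. This difference used both knockdown arrays and the authors' normalized intensities, and 166 records lay as near with the sign turned. Against the mean control, siTARBP2-1 alone gave 360 (339 with the sign turned) and siTARBP2-2 alone gave 68 (67). Which arrays entered the comparison, and how much each knockdown array counts in it, is therefore not known. The table gives no replicate error, so no difference described from it has a test or an interval. In RNA from whole cultures, fewer cells that carry a transcript and less of it per cell cannot be told apart.

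**Figure D1:**
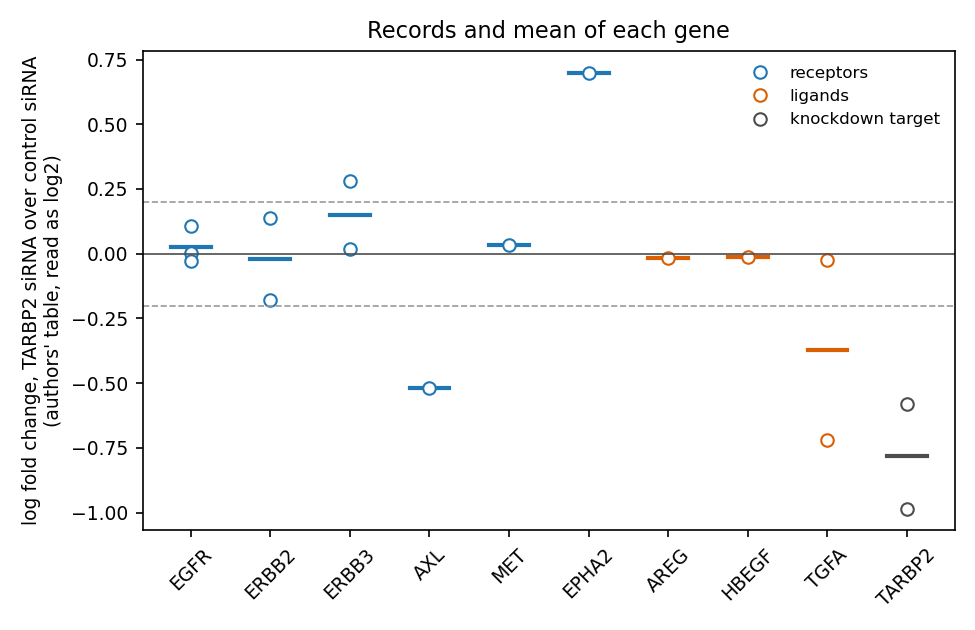
Log fold change, knockdown over control, from the authors' deposited table (base 2 assumed) for the receptors (blue), the ligands (orange) and the knockdown target TARBP2 (grey). Open circles are single records, bars are the mean over a gene's records, and dashed lines stand at 0.2 and -0.2. EPHA2 lies above the upper line, AXL and the mean of TGFA lie below the lower line, and the 2 records of TGFA are far apart.

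The windows upstream of 4 genes are shown because they set the members farthest from 0 (EPHA2, AXL and TGFA) beside AREG, a gene near 0 that shares a motif with EPHA2. Each is the 250 bases before the gene's first listed start, 5′ to 3′ on the gene's own strand, from RefSeq (GRCh38.p14). Windows were found for 8 of the 9 genes. Capitals mark TGACGTCA, the cyclic AMP response element, which reads the same on both strands.
EPHA2, chr1:16156070-16156319, minus strand: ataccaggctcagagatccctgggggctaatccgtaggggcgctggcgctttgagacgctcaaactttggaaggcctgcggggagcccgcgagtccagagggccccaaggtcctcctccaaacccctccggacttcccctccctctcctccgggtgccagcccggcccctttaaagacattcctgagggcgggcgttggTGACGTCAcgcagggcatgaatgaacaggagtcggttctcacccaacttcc
AREG, chr4:74444886-74445135, plus strand: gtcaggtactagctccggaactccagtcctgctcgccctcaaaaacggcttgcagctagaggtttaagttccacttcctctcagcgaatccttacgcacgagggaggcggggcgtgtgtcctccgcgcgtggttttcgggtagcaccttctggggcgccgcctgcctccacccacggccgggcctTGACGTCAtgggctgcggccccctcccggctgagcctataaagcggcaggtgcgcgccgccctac
AXL, chr19:41218973-41219222, plus strand: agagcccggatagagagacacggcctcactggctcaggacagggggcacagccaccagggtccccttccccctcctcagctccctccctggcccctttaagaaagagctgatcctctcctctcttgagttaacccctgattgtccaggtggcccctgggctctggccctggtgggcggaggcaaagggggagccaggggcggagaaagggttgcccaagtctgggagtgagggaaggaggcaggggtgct
TGFA, chr2:70553827-70554076, minus strand: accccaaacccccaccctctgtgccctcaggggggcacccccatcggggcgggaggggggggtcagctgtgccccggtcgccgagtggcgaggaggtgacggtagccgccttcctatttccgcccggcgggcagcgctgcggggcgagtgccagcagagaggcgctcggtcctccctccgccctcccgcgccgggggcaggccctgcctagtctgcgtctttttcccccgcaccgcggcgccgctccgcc

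The cyclic AMP response element lay 51 bases before the start of EPHA2 and 65 bases before that of AREG, counted to its first base. It was absent from the windows of AXL and TGFA and from those of the other members that had one. Over 35116 RefSeq windows of the same length, 1.65% held it. AREG, which carries the same 8 letters as EPHA2, was listed at -0.02 in the authors' deposited table. Whether the motif bears on the value of either gene was not tested. The GC box GGGCGG, searched on both strands, lay in the first windows of EPHA2, AREG, AXL and TGFA, as in 42.6% of all windows. The AP-1 letters TGANTCA, also read on both strands, were in none of the 4 windows shown and in 6.57% of all windows. None of these matches is evidence that a factor binds.

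EPHA2, a receptor for membrane-bound ephrin-A ligands, had the highest value of the 9 genes. Its only record, NM_004431, was listed at 0.70 in the authors' deposited table and was in the authors' class of up-regulated records. Read as log2 this is a ratio of 1.62, and read as a natural logarithm it would be 2.01, both for the value in the authors' deposited table. Of all named genes, 209 (1.07%) had a higher value in the authors' deposited table. The other Eph receptors did not stand with it, but without levels it is not known whether their transcripts were above background. Of 13 measured Eph receptors besides EPHA2, none exceeded 0.2 and 1 was under -0.2 in the authors' deposited table. That gene was EPHB4, a receptor for ephrin-B2, at -0.30 in the authors' deposited table. EPHB2 was the highest of them at 0.19, the mean of records at 0.15 and 0.23. Ephrin-A genes, which encode the ligands of EPHA2, lay between -0.16 (EFNA3) and 0.17 (EFNA1) in the authors' deposited table.

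AXL, a receptor of the TAM family that is activated by GAS6, was the lowest of the 9 genes. Its single record, NM_021913, was listed at -0.52 in the authors' deposited table, a ratio of 0.698 if the base is 2. Only 2.91% of named genes (567) had a lower value in the authors' deposited table. The relatives of AXL divided: TYRO3 was listed at 0.55 and MERTK at -0.25 in the authors' deposited table. TYRO3 had the highest gene mean of the 51 other measured receptor tyrosine kinases. The bridging ligands of this receptor family stood above the bound, with GAS6 at 0.29 and PROS1, the anticoagulant protein S, at 0.43 in the authors' deposited table. AXL thus had a value of opposite sign to TYRO3 and to both ligands in the same table.

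MET, the receptor for hepatocyte growth factor, was listed at 0.03 in the authors' deposited table with 1 record, NM_000245. The gene of its ligand, HGF, had a mean of 0.00 in the authors' deposited table, from 3 records between -0.09 and 0.09. The table holds no levels, so whether either transcript was above background is not known from it.

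Among the ErbB receptors, EGFR and ERBB2 stood close to 0 by their gene means and ERBB3 stood higher, and each had records that differed. EGFR, which binds all 3 ligands described here, was listed at 0.03 in the authors' deposited table as the mean of 3 records. The record of its full-length transcript, NM_005228, was listed at 0.11, whereas the records NM_201282 and NM_201284, which encode shorter forms without the kinase domain, was listed at 0.00 and -0.03 in the authors' deposited table. ERBB2, the co-receptor that has no known ligand, was listed at -0.02 in the authors' deposited table, with records of opposite sign. Record NM_004448 of ERBB2 was listed at 0.14 and NM_001005862 at -0.18 in the authors' deposited table. ERBB3, a neuregulin receptor with little kinase activity of its own, was listed at 0.15 in the authors' deposited table. Its full-length record, NM_001982, was listed at 0.28 and was in the authors' class of up-regulated records, while NM_001005915, the record of a short secreted form, was listed at 0.02 in the authors' deposited table. Hence 2 of the 14 records, those of EPHA2 and full-length ERBB3, belonged to the class that holds 9.11% of all records in the authors' deposited table.

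Among the ligands of EGFR, TGFA was apart from the other 2. TGFA, which encodes transforming growth factor alpha, was listed at -0.37 in the authors' deposited table, with 1123 named genes (5.77%) lower. This mean joins 2 unlike records: NM_003236 was listed at -0.72 and NM_001099691 at -0.02 in the authors' deposited table. AREG, the gene of amphiregulin, was listed at -0.02 and HBEGF, the gene of heparin-binding EGF-like growth factor, at -0.01 in the authors' deposited table, each from 1 record. The placement of TGFA below -0.2 therefore rests on 1 of its records.

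The distance between records is the only spread within a gene that the authors' deposited table offers. For the 2131 named genes with exactly 2 records, the authors' deposited table gave a median distance of 0.118. By contrast the records of TGFA were 0.693 apart, and 57 of those genes (2.67%) had a wider distance in the authors' deposited table. The distances of 0.316 for ERBB2 and 0.265 for ERBB3 were exceeded by 18.3% and 23.7% of such genes in the authors' deposited table. For EGFR the 3 records spanned 0.134, below the median span of 0.183 over 311 genes with 3 records in the authors' deposited table. Records of 1 gene can report different transcripts or differ by measurement error, and which of these applies was not tested. AXL, MET, EPHA2, AREG and HBEGF have 1 record each, so even this spread is missing for the highest and the lowest gene.

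**Figure D2:**
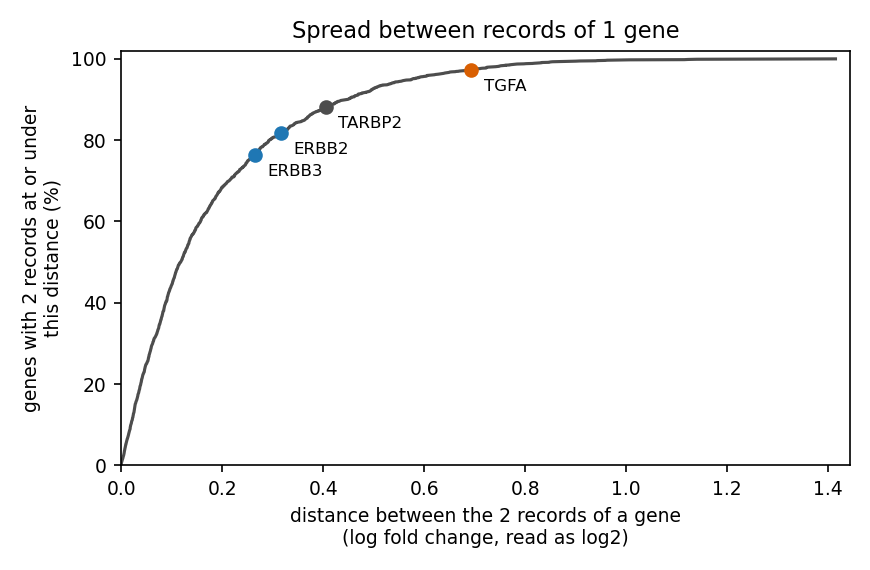
Share of the 2131 named genes with 2 records (vertical axis, percent) whose records lie at or under a given distance (horizontal axis, log fold change from the authors' deposited table, base 2 assumed). Points mark ERBB2, ERBB3, TGFA and the target TARBP2, and TGFA at 0.693 lies in the upper end of the curve.

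In order of value, EPHA2 (0.70) was followed by ERBB3 (0.15), MET (0.03), EGFR (0.03), HBEGF (-0.01), AREG (-0.02), ERBB2 (-0.02), TGFA (-0.37) and AXL (-0.52) in the authors' deposited table. The 5 genes from MET to ERBB2 lay within 0.05 of 0, as did 36.3% of all named genes of the authors' deposited table. Their order has no support, since they differ by less than the distance between the records of ERBB2. The gap from ERBB3 up to EPHA2 and that from ERBB2 down to TGFA are the places where the order separates, although TGFA's higher record lies among the 5.

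**Figure D3:**
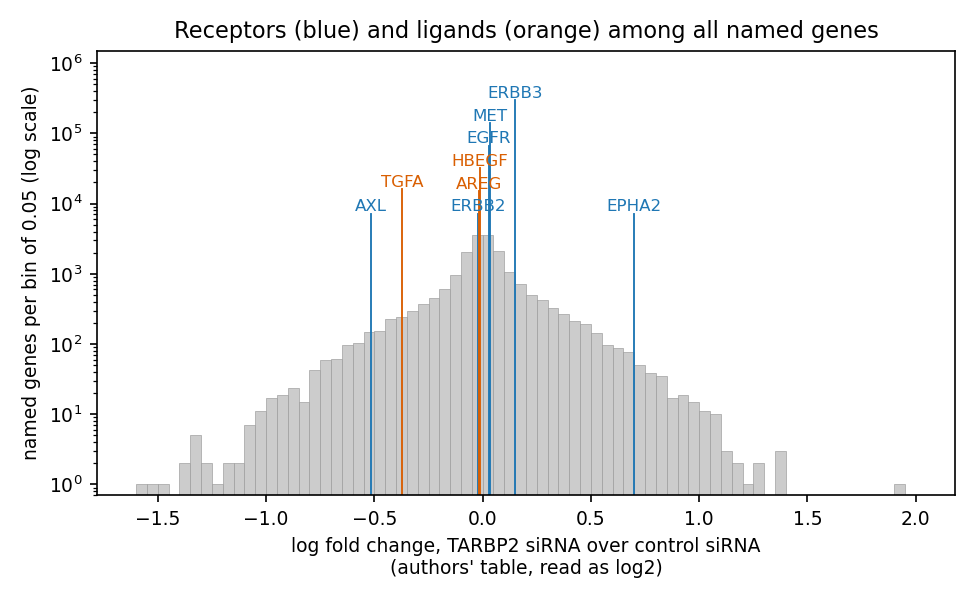
Number of named genes (vertical, log scale) by log fold change, knockdown over control, from the authors' deposited table, in bins of 0.05 with base 2 assumed. Blue and orange lines mark the gene means of the receptors and the ligands, with EPHA2 at 0.70, TGFA at -0.37 and AXL at -0.52 away from the peak of the distribution at 0.

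Other genes of the pathway were read from 7 lists, with 122 measured genes in all. Of these, 16 (13.1%) had a value over 0.2 and 14 (11.5%) under -0.2 in the authors' deposited table, shares near those of all named genes. Other receptor tyrosine kinases were mostly near 0 by their gene means in the authors' deposited table. Of 51 measured, 1 had a value over 0.2 and 2 under -0.2, with a median of 0.00. Without levels, how many of these transcripts were above background is not known. Single records could lie farther out: DDR1, with a mean of 0.197, had 3 records from -0.06 to 0.66 in the authors' deposited table. The receptors for FGF lay between 0.01 and 0.07 and the insulin receptor family between -0.15 and 0.15 in the authors' deposited table. Of the 8 other ErbB ligands, EREG, the gene of epiregulin, lay below -0.2 in the authors' deposited table, at -0.38, and none lay above 0.2. EREG and the mean of TGFA stood on the same side of 0 in the authors' deposited table. The TGFA records, at -0.72 and -0.02, lay below and above EREG.

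The proteases that release EGFR ligands went both ways. Of 6 genes of sheddases and their regulators, 3 had a value under -0.2 and 2 over 0.2 in the authors' deposited table, with a median of -0.14. ADAM10, the main sheddase of EGF and betacellulin, was listed at -0.83 in the authors' deposited table, the lowest of all 122 pathway genes. ADAM9 was listed at -0.40 and RHBDF1, the remaining gene under -0.2, at -0.21 in the authors' deposited table. ADAM17, the main sheddase of TGFA, AREG and HBEGF, was listed at 0.24, and RHBDF2, which brings ADAM17 to the cell surface, at 0.40 in the authors' deposited table.

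Genes that attenuate receptors and genes that act next to them also divided. Of 21 attenuators, 3 had a value over 0.2 and 4 under -0.2 in the authors' deposited table (median -0.03). SPRY2, a feedback inhibitor of ERK signalling, was listed at -0.72 and STAM, an endosomal sorting gene, at -0.61 in the authors' deposited table. The ubiquitin ligase gene CBLB was listed at 0.40 and RNF41, a ligase for ERBB3, at 0.30 in the authors' deposited table. The RNF41 mean joins records at 0.06 and 0.53. Of 19 receptor-proximal genes, 5 had a value over 0.2 and 3 under -0.2 in the authors' deposited table (median 0.00). PTPN11, the phosphatase SHP2, was listed at -0.66 and the adaptor gene IRS1 at -0.52, against 0.56 for PLCG1, a phospholipase, and 0.50 for SOS2, an exchange factor for RAS, in the authors' deposited table.

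Genes known as output of the ERK pathway did not stand on one side. Of 11 such genes, 3 had a value over 0.2 and 2 under -0.2 in the authors' deposited table, with a median of 0.09. FOSL1, an AP-1 subunit, was listed at 0.71 and DUSP6, an ERK phosphatase, at 0.42 in the authors' deposited table. EGR1, an immediate early gene, was listed at -0.73 in the authors' deposited table, beside SPRY2, which belongs to this list as well.

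**Figure D4:**
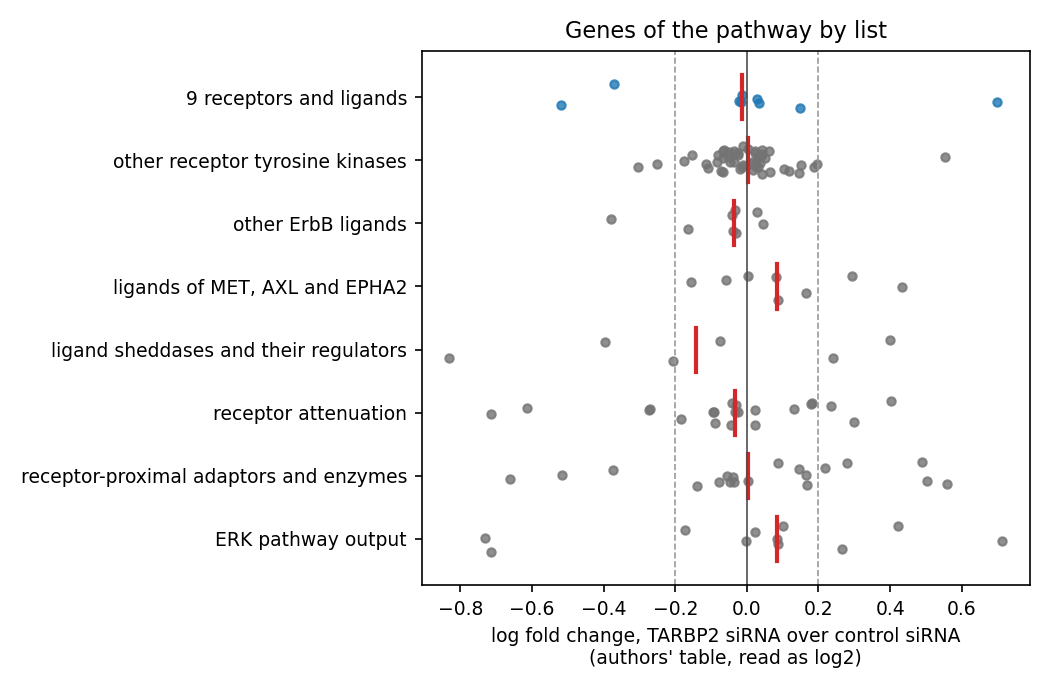
Gene values of the authors' deposited table (log fold change, knockdown over control, base 2 assumed) for the 9 receptors and ligands (blue) and for the genes of 7 pathway lists (grey). Each dot is 1 gene, vertical position within a row has no meaning, red bars are medians, and dashed lines stand at 0.2 and -0.2. The other receptor tyrosine kinases crowd near 0, and ADAM10 at -0.83 is the lowest gene.

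The knockdown target stood lower: TARBP2 had a mean of -0.78 in the authors' deposited table, with records at -0.98 and -0.58. On the arrays, 47321 probes were measured and between 41.0% and 45.7% of them were detected per array. None of 21075 detected probes passed the comparison of the groups (limma, two-sided, smallest Benjamini-Hochberg adjusted p = 0.805), and 815 (3.87%) had an unadjusted p under 0.05. Leaving out siTARBP2-1 gave 4479 passing probes and leaving out siTARBP2-2 gave 12035 (adjusted p under 0.05), with the spread then taken from the control pair, and leaving out either control gave 0. Probe differences between the 2 knockdown arrays had an SD of 0.852 on the log2 scale, against 0.250 between the 2 controls. No table used here pairs a probe with a gene. The values of the 9 genes on single arrays, their levels and their agreement between the knockdown arrays were therefore not analysed here. For the same reason the labelled cell type could not be checked by levels of its markers. Of 8 mesenchymal markers, 2 had a value over 0.2 and 1 under -0.2 in the authors' deposited table (SPARC 0.28, SNAI2 0.26, CAV1 -0.27). Of 10 luminal markers, 3 lay above and 1 below (KRT8 1.05, KRT19 0.85, SPDEF 0.33, FOXA1 -0.41). Means between the bounds could join unlike records: CD44 had 3 from -0.59 to 0.20, and XBP1 had records at -0.29 and 0.36. Of 10 leukocyte markers, 4 had a value over 0.2 and none under -0.2 in the authors' deposited table, led by LAPTM5 at 0.75 and CD74 at 0.62, and of 10 fibroblast and endothelial markers 2 lay above (ACTA2 0.42, COL1A1 0.28) and none below. Their part in the values of EPHA2, AXL and TGFA was not tested.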

How the data were processed

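Total RNA of 4 samples was measured on Illumina BeadChips. Each sequence accession of the authors' deposited table has 1 log fold change, taken here as log2, and a class, per the file headers. The class was 1 for values from 0.200012 and 0 up to 0.199963. The sources used here do not say how probes and arrays were joined. The deposited intensity values were not normalized in one table and shared their quantiles in the other, for which the submitters' processing notes name lumi. The deposited detection score is a fraction from 0 to 1, and 1 minus it was used as the detection p-value.

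Symbols came from RefSeq (GRCh38.p14) through accessions with the version dropped (22411 matched, 56.4%). A gene's value was the mean over its records. Raw intensities were processed with neqc in limma 3.58.1 (R 4.3.3, offset 16). Detected probes (p under 0.05 on 2 or more arrays) were tested with lmFit and eBayes with trend. The number of arrays limits the precision. Figures used matplotlib.

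The members and lists were chosen with earlier results of these data known. The rule for named genes took all members, TARBP2 and, from each list, up to 4 genes farthest from 0 beyond 0.2 or -0.2 (up to 8 receptor tyrosine kinases). Genes named outside it, after their values were seen, are EPHB2, the ephrin-A genes, HGF, DDR1, RHBDF1, CD44 and XBP1. Alternatives were the summary over records, curated accessions only, the bound, and for probes the normalization, filter, trend, replicate block and leaving out each array. P-values measure only the spread between these arrays, and probe differences were wider in the knockdown pair (SD 0.852) than in the control pair (SD 0.250). How much of this spread is technical is not known.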

Additional observations from a re-analysis of the deposited data

How the results depend on the processing

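With the record farthest from 0 in place of the mean, EGFR was at 0.11, ERBB2 at -0.18, ERBB3 at 0.28 and TGFA at -0.72, and 2 of the 9 genes lay above 0.2 (EPHA2 and ERBB3) in place of 1. The 5 members with 1 record cannot change under any choice of record. A bound of 0.1 also gave 2 above it, and with a bound of 0.5 there was 1 gene below it (AXL) in place of 2. Of the 122 pathway genes, 29 lay above and 23 below a bound of 0.1, in place of 16 and 14. With a bound of 0.5, 4 lay above and 6 below. Of all named genes, 22.3% lay above and 20.2% below a bound of 0.1. The shares with a bound of 0.5 were 3.17% above and 3.18% below. With the record farthest from 0 and a bound of 0.2, 21 pathway genes lay above and 18 below. The shares of all named genes under that choice of record were not computed. Neither these pathway counts nor the 2 members above 0.2 therefore have a background to be read against. The median over records can differ from the mean only for genes with over 2 records, among the members EGFR alone, and all member records are curated, so neither alternative bears on the stability of the members' counts.

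The count of probes past the limma test was 0 with the authors' normalized intensities, without background correction, without the detection filter, without trend and with the replicate number as a block. With 1 array left out it ran from 0 to 12035. It was 4479 without siTARBP2 replicate 1, 12035 without siTARBP2 replicate 2 and 0 without either control, where the remaining array of a group is taken to vary as the other group did. Arrays of the same number did not deviate together (correlation -0.042 over probes), so the numbers are not read as pairs. Under the replicate block 1019 probes had an unadjusted p under 0.05, in place of 815.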
